A study of Mus musculus with 16 samples.

Results

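The genes described here are named as subunits of voltage-gated sodium and calcium channels in mouse and are called channel genes throughout. They were chosen by symbol in the deposited expression tables, among the Scn genes with an a or b suffix and the Cacna1, Cacna2d, Cacnb and Cacng genes. Described are 38 genes among 55471 lines: 9 sodium channel α subunits, 3 sodium channel β subunits, 10 calcium channel α1 subunits, 4 α2δ subunits, 4 β subunits and 8 γ subunits.

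The study depleted the long noncoding RNA RUS, annotated in mouse as Gm20754, in differentiating neural stem cells (NSC) and asked how gene expression responded. NSC came from cortices of C57BL/6 embryos at E15-16, pooled over embryos of both sexes and expanded as monolayers with B27, fetal calf serum and bFGF. All cultures received a lentivirus: the controls one with a scrambled shRNA (shRNA CON), the knockdown cultures one with a single shRNA sequence against RUS (shRNA RUS). In these libraries depletion of RUS and any other action of that sequence cannot be told apart. The paper also reports a rescue, outside these libraries, in which overexpressed RUS largely restored staining for a neuronal marker. Neurobasal medium with B27 and GlutaMAX replaced the growth medium 5 days after seeding, and RNA was taken on day 5 or day 7, which gave 4 groups of 4 libraries, 16 in all.

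PolyA RNA was sequenced and deposited as TPM, a transcript level per length that has the same total in every library and can therefore be compared between genes. To set libraries side by side, TPM were brought to a common scale with factors of 0.845 to 1.02 on day 5 and 1.07 to 1.10 on day 7, and are called scaled TPM here. The day 5 factors were 0.943 to 1.02 with shRNA CON and 0.845 to 0.928 with shRNA RUS. The fits of a single day used factors from that day's libraries alone, 0.92 to 1.11. Changes are log2 ratios ± SE from limma after 0.1 was added, which understates the change of genes near that value, and a gene was called at an adjusted p under 0.05 over all genes tested. TPM keeps no read number, so depth is unknown. The labels do not say whether the 4 replicates of a group were separate cultures, and the p-values then measure the spread between these libraries only. In RNA from whole cultures, fewer cells that express a gene and less RNA per cell cannot be told apart. Gm20754 itself was low (mean ± SD, n = 4). On day 5 it was at 0.172 ± 0.0538 TPM with shRNA CON and 0.122 ± 0.141 with shRNA RUS (71.0% of control). On day 7 it was at 0.555 ± 0.213 and 0.240 ± 0.263 (43.2%). Neither difference passed an exact permutation test on TPM as deposited (two-sided p = 0.543 and p = 0.143, smallest possible 0.0286). The paper also measured RUS by RT-qPCR and reports that it was reduced in the knockdown cultures.

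Voltage-gated sodium channels open quickly on depolarization and carry the rising phase of the action potential. Their α subunit forms the pore, and the β subunits, which are also adhesion molecules of the immunoglobulin superfamily, set gating and surface density. Voltage-gated calcium channels turn depolarization into calcium entry that drives transmitter release, transcription and growth of neurites. Their α1 subunit is the pore, the cytoplasmic β and the extracellular, membrane-anchored α2δ subunits bring it to the membrane, and most γ subunits of the brain act as auxiliary subunits of AMPA-type glutamate receptors (TARPs) rather than of calcium channels.

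On day 5 more channel genes were lower than higher with shRNA RUS, and on day 7 the reverse held. Of 33 channel genes tested on day 5, 3 were higher and 11 lower, which is 42.4% against 32.7% of all genes tested. The shares were 9.09% against 14.8% for higher and 33.3% against 17.9% for lower. On day 7, 12 of 34 were higher and 8 lower, 58.8% against 49.2% of all genes; higher calls made up 35.3% against 23.4%, and lower calls 23.5% against 25.8%. The median change of the channel genes was −0.23 on day 5 and 0.15 on day 7, where that of all genes was −0.06 and −0.03. The day 5 split depended on scaling: it was 1 higher and 12 lower with TPM as deposited, and 5 higher and 6 lower after quantile normalization. Of all genes, 7.83% were higher and 26.7% lower with TPM as deposited, and 14.8% and 14.7% after quantile normalization. On day 7 quantile normalization gave 14 higher and 5 lower, against 24.6% and 24.5% of all genes. This normalization ended the day 5 calls of Scn1a, Scn2a, Scn4b, Cacna1c and Cacng6 and the day 7 calls of Scn9a, Cacna1s and Cacna2d4.

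Of the genes described, 3 were higher on both days: Cacnb1, Cacnb3 and Cacng7. Another 4 were lower on both, namely Scn3b, Scn4b, Cacna2d4 and Cacng6. Lower on day 5 and higher on day 7 were Cacna1c and Cacng5. A further 5 genes (Scn1a, Scn2a, Scn8a, Cacna1e and Cacng4) were called lower on day 5 and not called on day 7, and 7 (Cacna1g, Cacna1h, Cacna2d1, Cacna2d3, Cacnb4, Cacng2 and Cacng3) were called higher on day 7 alone. Cacna1d, Cacna1s, Cacnb2 and Scn9a were called lower on day 7 alone, Scn9a having been too low to test on day 5. A call on 1 day alone does not show that the effect differed between the days, which was tested separately. No call was made on either day for 9 genes. Of the 33 channel genes tested on both days, 9.09% were higher on both, 12.1% lower on both, 6.06% lower and then higher, 15.2% lower on day 5 alone, 21.2% higher on day 7 alone and 27.3% not called. Among 21791 genes tested on both days these shares were 9.69%, 12%, 1.23%, 5.15%, 14.8% and 37.4%, so that the channel genes lay near all genes in the classes with the same direction on both days. Of the 14 calls of day 5, 5 held in all 8 fits that left out 1 library. The count of calls was 9 without shRNA CON replicate 1, 9 without replicate 2 and lowest, at 7, without replicate 3. These are 27.3%, 27.3% and 21.9% of the channel genes tested, against 26.8%, 27.1% and 25.5% of all genes. The day 5 excess of calls in either direction was thus not kept without any one of those 3 libraries. Lower calls were 7 of 33, 7 of 33 and 6 of 32 there, against 14.5%, 14.5% and 13.8% of all genes. On day 7, 15 of 20 calls held in all 8 fits, in which 47.1% to 52.9% of channel genes and 45.2% to 47.5% of all genes were called. The shares were 47.1% against 47.5% without shRNA CON replicate 4 and 47.1% against 47.2% without shRNA RUS replicate 1. The excess on day 7 was thus not kept without either of these libraries.

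**Figure D1:**
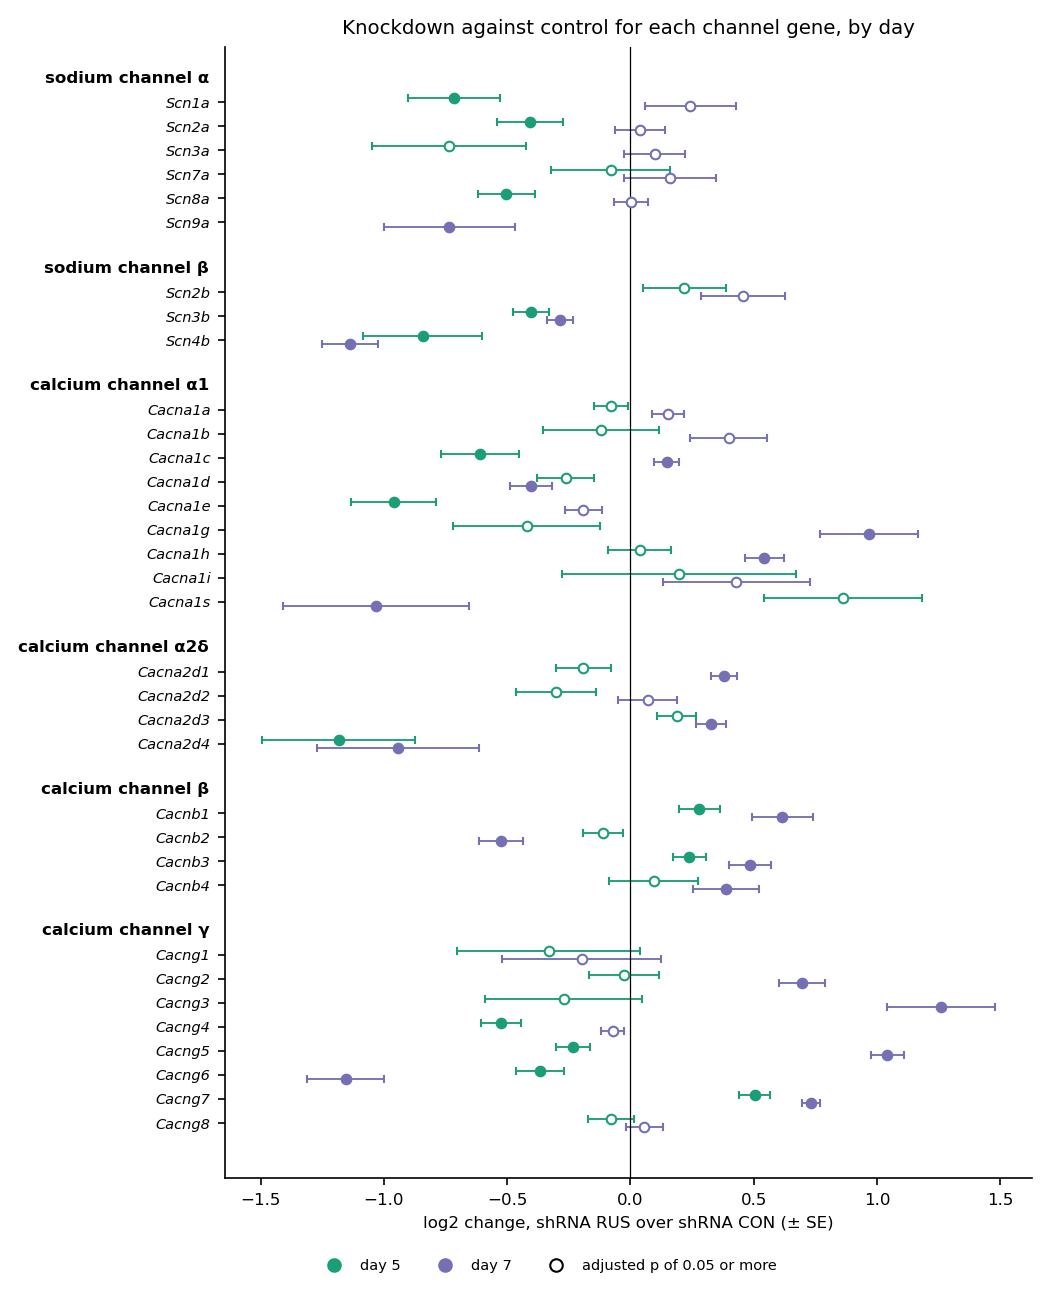
Log2 change of each tested channel gene, shRNA RUS over shRNA CON (horizontal axis, ± SE of limma, 4 against 4 libraries), on day 5 (green) and day 7 (purple), grouped by subunit class. Filled points have an adjusted p under 0.05. Cacng3 lies farthest to the right on day 7, at 1.26, and the sodium channel α genes lie left of 0 on day 5 and near 0 on day 7, apart from Scn1a at 0.24, which is not called, and Scn9a at −0.74.

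Where called, sodium channel α subunits were lower with shRNA RUS on day 5. Of the 5 tested, 3 were lower and none higher (median change −0.50), and on day 7 Scn9a was the only one called among 6, also lower. Lower calls were thus 60.0% on day 5, against 17.9% of all genes, and 16.7% were called on day 7, against 49.2%. The day 5 share fell to 1 of 5, Scn8a, without shRNA CON replicate 3, after quantile normalization and with the replicate number as a block. That is 20%, against 13.8%, 14.7% and 12.1% of all genes lower in these fits. Scn8a, whose channel clusters at the axon initial segment and the nodes of Ranvier, was the most abundant. In the day 5 libraries it stood at 8.31, 7.47, 6.97 and 6.81 scaled TPM with shRNA CON and at 4.54, 4.56, 5.67 and 6.04 with shRNA RUS. All 4 knockdown libraries lay below all controls, with a change of −0.50 ± 0.12, adjusted p = 0.00943. On day 7 the values were 12.1, 9.79, 10.8 and 11.0 with shRNA CON and 10.4, 10.9, 11.2 and 10.7 with shRNA RUS. The groups overlapped there and the change was 0.00 ± 0.07, adjusted p = 0.974. The effect on day 7 exceeded that on day 5 by 0.49 ± 0.14, adjusted p = 0.0128.

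The channel of Scn2a carries the spikes of young excitatory neurons. Its level was 1.85 ± 0.185 scaled TPM (mean ± SD, n = 4) with shRNA CON and 1.37 ± 0.156 with shRNA RUS on day 5 (−0.41 ± 0.13, adjusted p = 0.0413), a call that was lost in 7 of 8 fits without 1 library, where the adjusted p reached 0.104. On day 7 it was 2.99 ± 0.323 and 3.04 ± 0.211 (0.04 ± 0.10, adjusted p = 0.788). Scn3a, the α subunit typical of embryonic brain, was at 1.16 ± 0.206 and 0.701 ± 0.343 on day 5, did not pass the test (−0.74 ± 0.31, adjusted p = 0.102) and stood at 3.46 ± 0.456 and 3.68 ± 0.509 on day 7. Scn1a, the main α subunit of fast-spiking interneurons, stayed below 1 scaled TPM in all libraries; on day 5 it was at 0.499 to 0.597 with shRNA CON and 0.249 to 0.324 with shRNA RUS (−0.72 ± 0.19, adjusted p = 0.0161), and the call was lost without shRNA CON replicate 3 (adjusted p = 0.0516).

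Among the rest, Scn7a, which encodes a sodium sensor rather than a spike-generating channel, did not exceed 0.550 scaled TPM and was not called on either day. Scn9a, a channel of sensory neurons, ranged over 0.197 to 0.280 with shRNA CON and 0.0642 to 0.157 with shRNA RUS on day 7 (−0.74 ± 0.27, adjusted p = 0.0445). That call was lost in 7 of 8 fits that left out 1 library, and exons of the antisense gene Gm13629 overlap 180 bases of it. The sensory neuron genes Scn10a and Scn11a and the skeletal muscle gene Scn4a were too low to test, none above 0.0936.

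Of the sodium channel β subunits described, Scn3b and Scn4b were lower on both days and Scn2b was not called. Scn4b, whose product is linked to the α subunit by a disulfide bond and supports resurgent sodium current, was at 0.353, 0.329, 0.330 and 0.375 with shRNA CON and 0.130, 0.222, 0.0925 and 0.151 with shRNA RUS on day 5, and at 2.64, 2.39, 2.43 and 2.12 (shRNA CON) and 0.972, 1.07, 1.07 and 0.982 (shRNA RUS) on day 7. The groups did not overlap on either day. Its changes were −0.84 ± 0.24, adjusted p = 0.0256 on day 5 and −1.14 ± 0.11, adjusted p = 2.80e-05 on day 7. The day 5 call was lost in 6 of 8 fits that left out 1 library (adjusted p up to 0.0654), and the day 7 call in none.

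Scn3b, whose product binds the α subunit without a disulfide bond, was at 15.3, 14.3, 13.9 and 15.5 with shRNA CON and 11.9, 11.2, 9.99 and 11.5 with shRNA RUS on day 5, and at 18.2, 18.6, 18.2 and 19.9 (shRNA CON) and 16.5, 14.6, 14.5 and 15.2 (shRNA RUS) on day 7. The groups did not overlap on either day (−0.40 ± 0.07, adjusted p = 0.00272 on day 5 and −0.29 ± 0.05, adjusted p = 0.00139 on day 7). Scn2b, the disulfide-linked relative of Scn4b, reached at most 1.18 scaled TPM. On day 7 its knockdown libraries, at 0.852 to 1.18, lay above the controls, at 0.531 to 0.734, but the test was not passed (0.46 ± 0.17, adjusted p = 0.0508). It was called under 5 alternative settings, among them quantile normalization and a pseudocount of 1.

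**Figure D2:**
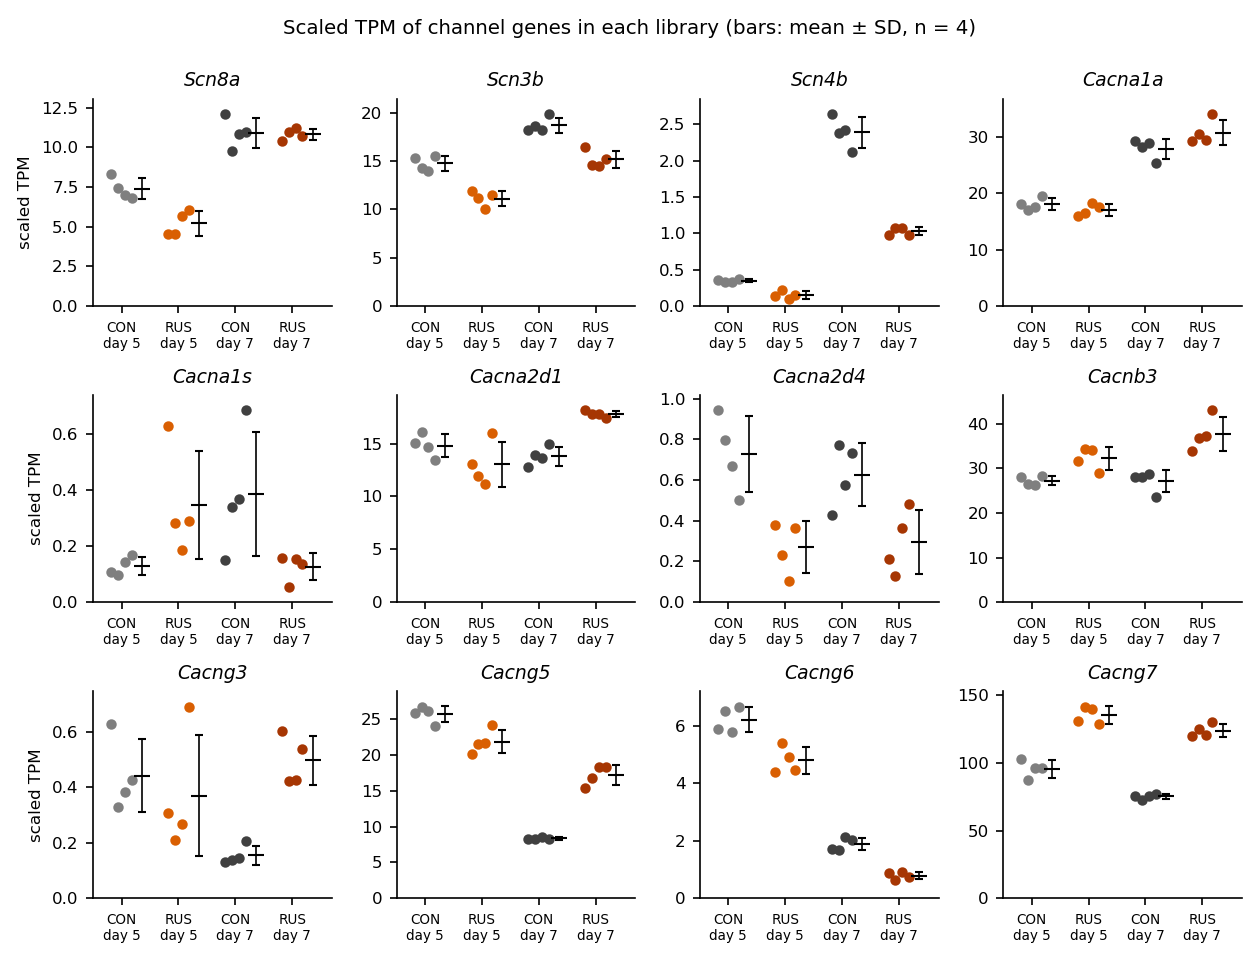
Scaled TPM (vertical axes, linear and starting at 0) in each of the 4 libraries of the 4 groups, for the most abundant gene described in each class and for the genes called with a log2 change of at least 1 on either day; bars give mean ± SD. Cacnb3 and Cacng7 are higher with shRNA RUS on both days, Scn4b and Cacng6 are lower on both, and Cacng5 overlaps between the groups on day 5 and is higher on day 7.

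The calcium channel α1 subunits were mixed. Of 9 tested on each day, 2 were lower and none higher on day 5, and 3 were higher and 2 lower on day 7, which is 22.2% and 55.6% called against 32.7% and 49.2% of all genes. Cacna1a, the pore of P/Q-type channels at presynaptic terminals, was the most abundant. It stood at 18.1, 17.0, 17.5 and 19.6 scaled TPM with shRNA CON and 16.0, 16.4, 18.3 and 17.6 with shRNA RUS on day 5, and at 29.3, 28.1, 28.8 and 25.4 (shRNA CON) and 29.2, 30.4, 29.4 and 34.0 (shRNA RUS) on day 7. The groups overlapped on both days and neither change passed the test (−0.08 ± 0.07, adjusted p = 0.430 on day 5 and 0.15 ± 0.07, adjusted p = 0.0832 on day 7). Cacna1b, the N-type pore that shares this presynaptic role, was at 1.84 ± 0.574 and 1.67 ± 0.419 on day 5 and at 4.93 ± 1.19 and 6.37 ± 0.732 on day 7, where its change of 0.40 ± 0.16, adjusted p = 0.0599 missed the threshold. It was called on day 7 in 5 of 19 alternative settings, among them quantile normalization and a filter at a mean of 1 TPM (adjusted p down to 0.00436).

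Of the L-type pores, which couple depolarization to transcription, Cacna1c changed direction between the days. It was at 6.86, 4.06, 5.60 and 4.44 with shRNA CON and 3.48, 3.49, 2.94 and 3.40 with shRNA RUS on day 5 (−0.61 ± 0.16, adjusted p = 0.0164), and at 10.6, 11.4, 11.6 and 11.6 (shRNA CON) and 12.4, 12.1, 12.2 and 12.8 (shRNA RUS) on day 7 (0.15 ± 0.05, adjusted p = 0.0366). All knockdown libraries lay below the controls on day 5 and above them on day 7. The day 7 rise was small and its call was lost in 6 of 8 fits without 1 library; the day 5 call was lost without shRNA CON replicate 3 (adjusted p = 0.0501). The effects differed between the days by 0.75 ± 0.17, adjusted p = 0.00429. Cacna1d, the other main L-type gene of brain, was at 6.66 ± 0.722 and 5.53 ± 0.680 on day 5 (−0.26 ± 0.11, adjusted p = 0.109) and at 12.4 ± 1.40 and 9.21 ± 0.448 on day 7, when it was lower (−0.40 ± 0.09, adjusted p = 0.00328). Its knockdown libraries lay below the controls on both days, and the day 5 change was called with TPM as deposited.

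Cacna1s, the L-type pore of skeletal muscle, was scarce, with an authors' base mean (normalised reads averaged over the libraries of a day) of 18.5 on day 5 and 11.2 on day 7. On day 5 it was at 0.108, 0.0955, 0.144 and 0.167 with shRNA CON and 0.627, 0.280, 0.185 and 0.291 with shRNA RUS, and on day 7 at 0.149, 0.340, 0.367 and 0.684 (shRNA CON) and 0.157, 0.0550, 0.154 and 0.136 (shRNA RUS). The day 5 groups did not overlap but the test was not passed (0.86 ± 0.32, adjusted p = 0.0677); on day 7 the groups overlapped and the call (−1.03 ± 0.38, adjusted p = 0.0462) was lost in 7 of 8 fits that left out 1 library. Exons of the opposite-strand gene Gm37759 cover 1309 bases of Cacna1s. Cacna1f, the retinal L-type gene, was too low to test, at no more than 0.127.

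Cacna1e, the R-type pore, had the largest decrease among α1 genes on day 5, from 2.59 ± 0.214 to 1.31 ± 0.361 (−0.96 ± 0.17, adjusted p = 0.00262), and was at 4.49 ± 0.352 and 3.87 ± 0.0727 on day 7 (−0.19 ± 0.07, adjusted p = 0.0601). On day 7 its knockdown libraries, at 3.78 to 3.94, lay below the controls, at 4.24 to 5.00. It was called lower on that day under 3 of 19 alternative settings. T-type channels open at low voltage and shape firing near rest. Cacna1g was at 2.52 ± 0.759 and 1.90 ± 0.746 on day 5 (−0.42 ± 0.30, adjusted p = 0.316) and at 2.85 ± 0.458 and 5.72 ± 1.53 on day 7 (0.97 ± 0.20, adjusted p = 0.00266). Cacna1h was at 7.96 ± 0.879 and 8.21 ± 1.31 on day 5 (0.04 ± 0.13, adjusted p = 0.853) and at 6.58 ± 0.174 and 9.57 ± 1.06 on day 7 (0.54 ± 0.08, adjusted p = 3.24e-04). Both were higher on day 7. The third T-type gene, Cacna1i, did not exceed 0.700 scaled TPM and was not called.

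The α2δ subunits raise the number of channels at the membrane and the synapse. Cacna2d1, a receptor of the drug gabapentin, led the class, at 15.1, 16.1, 14.6 and 13.4 with shRNA CON and 13.1, 11.9, 11.2 and 16.0 with shRNA RUS on day 5, and at 12.8, 13.9, 13.6 and 14.9 (shRNA CON) and 18.1, 17.8, 17.8 and 17.4 (shRNA RUS) on day 7. The groups overlapped on day 5 (−0.19 ± 0.11, adjusted p = 0.224) and were separate on day 7 (0.38 ± 0.05, adjusted p = 2.40e-04). Cacna2d3 was higher on day 7, from 9.18 ± 0.656 to 11.4 ± 0.292 (0.33 ± 0.06, adjusted p = 0.00158), and Cacna2d2 was not called, at 1.69 ± 0.152 and 1.76 ± 0.193 on that day.

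Cacna2d4, known from photoreceptors, was the least abundant α2δ gene. On day 5 it was at 0.942, 0.796, 0.669 and 0.500 with shRNA CON and 0.379, 0.234, 0.104 and 0.366 with shRNA RUS, and on day 7 at 0.429, 0.771, 0.577 and 0.730 (shRNA CON) and 0.213, 0.128, 0.363 and 0.482 (shRNA RUS). Knockdown libraries lay below the controls on day 5 (−1.18 ± 0.31, adjusted p = 0.0172) and overlapped them on day 7 (−0.94 ± 0.33, adjusted p = 0.0379). The day 5 call was lost without shRNA CON replicate 1 (adjusted p = 0.0514) and the day 7 call in 5 of 8 fits.

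All 4 cytoplasmic β subunits were called on day 7, 3 higher and 1 lower, where 49.2% of all genes were called, 23.4% higher and 25.8% lower. Cacnb3, abundant in brain and the leading member here, was at 28.0, 26.5, 26.2 and 28.3 scaled TPM with shRNA CON and 31.6, 34.3, 34.0 and 28.8 with shRNA RUS on day 5, and at 28.1, 28.1, 28.8 and 23.6 (shRNA CON) and 33.9, 36.8, 37.1 and 43.0 (shRNA RUS) on day 7. Knockdown libraries were above the controls on both days (0.24 ± 0.07, adjusted p = 0.0248 on day 5 and 0.48 ± 0.09, adjusted p = 0.00118 on day 7). Cacnb1, the β subunit of skeletal muscle that brain also expresses, was at 12.4 ± 0.666 and 15.1 ± 1.43 on day 5 (0.28 ± 0.08, adjusted p = 0.0288) and at 11.3 ± 1.82 and 17.2 ± 1.76 on day 7 (0.62 ± 0.12, adjusted p = 0.00232). The day 5 calls were the weaker ones, lost in 4 of 8 fits for Cacnb3 and 6 of 8 for Cacnb1 when 1 library was left out, and both were lost with TPM as deposited.

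Cacnb2, the main β subunit of heart, was the one that was lower on day 7, at 13.1 ± 0.932 against 9.01 ± 0.980 (−0.53 ± 0.09, adjusted p = 8.96e-04), after 8.93 ± 0.746 and 8.24 ± 0.455 on day 5 (−0.11 ± 0.08, adjusted p = 0.331). Cacnb4, whose loss causes ataxia in the lethargic mouse, was at 4.39 ± 0.738 and 5.70 ± 0.774 on day 7 (0.39 ± 0.13, adjusted p = 0.0379), with overlapping groups and a call lost in 6 of 8 fits without 1 library. Exons of genes on the opposite strand overlap Cacnb1 (80 bases), Cacnb2 (618 bases of Gm10849, 111 of Gm10848 and 239 of Gm13269) and Cacnb4 (1433 bases). The same holds for Cacna1a (435 bases), Cacna1d (589), Cacna1h (158) and Cacna2d2 (82), and no source used here says whether the authors counted by strand.

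The γ genes held the most abundant channel gene. Of 8 tested, 1 was higher and 3 lower on day 5, and 4 were higher and 1 lower on day 7, which is 50.0% and 62.5% called against 32.7% and 49.2% of all genes. Cacng7, a TARP that binds AMPA receptors, was at 103, 87.1, 96.2 and 96.5 scaled TPM with shRNA CON and 131, 142, 140.2 and 129 with shRNA RUS on day 5, and at 75.9, 72.5, 75.6 and 77.1 (shRNA CON) and 119.8, 125, 120.5 and 130.3 (shRNA RUS) on day 7. Knockdown libraries were above all controls on both days, by 0.50 ± 0.06, adjusted p = 3.71e-04 on day 5 and 0.73 ± 0.04, adjusted p = 5.00e-07 on day 7. Cacng5, its closest relative among the TARPs, was at 25.9, 26.7, 26.1 and 24.1 (shRNA CON) and 20.1, 21.5, 21.7 and 24.1 (shRNA RUS) on day 5, and at 8.26, 8.30, 8.61 and 8.28 (shRNA CON) and 15.4, 16.8, 18.3 and 18.3 (shRNA RUS) on day 7. The groups overlapped on day 5 and were separate on day 7. Cacng5 was lower on day 5 (−0.23 ± 0.07, adjusted p = 0.0271), a call lost in 6 of 8 fits that left out 1 library, and higher on day 7 (1.04 ± 0.07, adjusted p = 1.72e-06), a call lost in none. The effects differed between the days by 1.26 ± 0.09, adjusted p = 5.82e-07.

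The sequence before the start of these genes is shown because they were the most abundant of the 4 γ genes that were higher on day 7. Each line gives the 250 bases before a RefSeq start (GRCm38.p6), 5′ to 3′ on the strand of the gene, and capitals mark the GC box GGGCGG or its reverse complement CCGCCC. The window of Cacng7 ends 130 bases before its annotated gene start in GENCODE, and that of Cacng5 ends at the start.
Cacng7 (chr7:3332575-3332824, plus strand): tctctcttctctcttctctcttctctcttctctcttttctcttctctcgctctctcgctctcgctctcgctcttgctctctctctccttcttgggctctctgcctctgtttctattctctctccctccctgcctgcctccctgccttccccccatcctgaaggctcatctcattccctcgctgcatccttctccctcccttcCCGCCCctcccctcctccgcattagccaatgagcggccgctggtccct
Cacng5 (chr11:107915056-107915305, minus strand): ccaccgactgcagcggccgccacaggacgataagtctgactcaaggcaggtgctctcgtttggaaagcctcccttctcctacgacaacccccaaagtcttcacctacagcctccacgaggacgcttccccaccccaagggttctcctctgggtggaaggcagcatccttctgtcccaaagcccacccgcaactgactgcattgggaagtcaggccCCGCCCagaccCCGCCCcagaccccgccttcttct
The Cacng7 window is 84.0% pyrimidine, with a run of repeated units at its distal end, and holds 1 GC box, 48 bases before the start. The Cacng5 window is 58.0% pyrimidine and holds 2, at 35 and 24 bases before the start. Cacng5 has a further RefSeq start 3693 bases inside the annotated gene, whose window of the same length is 39.2% pyrimidine and holds no GC box. None of these windows holds the TATA box or the E-box that were also searched.

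Cacng6, a γ subunit that modulates T-type calcium current rather than AMPA receptors, was lower on both days. It was at 5.88, 6.54, 5.80 and 6.67 with shRNA CON and 4.40, 5.42, 4.90 and 4.47 with shRNA RUS on day 5, and at 1.72, 1.69, 2.14 and 2.01 (shRNA CON) and 0.898, 0.632, 0.918 and 0.728 (shRNA RUS) on day 7. The groups were separate on both days (−0.37 ± 0.10, adjusted p = 0.0174 on day 5 and −1.16 ± 0.16, adjusted p = 1.98e-04 on day 7), and the effect on day 7 differed from that on day 5 by −0.79 ± 0.17, adjusted p = 0.00280. The day 5 call was lost without shRNA CON replicate 2 or 4 (adjusted p up to 0.0509).

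Cacng4, a TARP of the embryonic brain, was lower on day 5, from 30.3 ± 3.05 to 20.9 ± 1.26 (−0.53 ± 0.08, adjusted p = 0.00110), and at 33.9 ± 1.00 and 31.9 ± 1.71 on day 7 (−0.07 ± 0.05, adjusted p = 0.243). Cacng8, a TARP of hippocampus, was not called, at 18.1 ± 1.54 and 17.1 ± 1.75 on day 5 and 13.0 ± 0.846 and 13.4 ± 0.978 on day 7. Cacng2, or stargazin, which brings AMPA receptors to the synapse, was at 0.984 ± 0.116 and 0.961 ± 0.0652 on day 5 and higher on day 7, from 1.70 ± 0.0946 to 2.79 ± 0.144 (0.70 ± 0.09, adjusted p = 1.82e-04). Exons of A730060N03Rik overlap 323 bases of Cacng2 on the opposite strand.

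Cacng3, a TARP of cortex, was scarce too, with an authors' base mean of 22.3 on day 5 and 16.9 on day 7. On day 5 it was at 0.628, 0.329, 0.381 and 0.427 with shRNA CON and 0.308, 0.210, 0.266 and 0.690 with shRNA RUS (−0.27 ± 0.32, adjusted p = 0.555), and on day 7 at 0.131, 0.138, 0.147 and 0.206 (shRNA CON) and 0.602, 0.422, 0.427 and 0.537 (shRNA RUS) (1.26 ± 0.22, adjusted p = 0.00103). The groups overlapped on day 5, and on day 7 every knockdown library was above the controls. Cacng1, the γ subunit of skeletal muscle, did not exceed 0.255 and was not called.

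Since TPM is per length, the share of a gene in its class can be read within a library, and this was done for the calcium channel classes. In the γ class Cacng7 held 53.9% ± 1.65 of the summed TPM (mean ± SD, n = 4) in controls and 67.2% ± 0.750 in knockdown cultures on day 5, and 56.0% ± 1.28 and 65.0% ± 0.701 on day 7. The share of Cacng4 was 17.0% ± 1.19 and 10.4% ± 0.695 on day 5 and 25.2% ± 0.707 and 16.8% ± 0.630 on day 7. Cacna1a was the leading calcium channel pore in all groups, with between 39.2% ± 1.06 and 43.0% ± 1.78 of the α1 sum. In the cytoplasmic β class Cacnb3 held 54.4% ± 2.29 and 56.2% ± 0.909 on day 5 and 48.5% ± 1.09 and 54.1% ± 1.78 on day 7, and in the α2δ class Cacna2d1 held 59.1% ± 1.37 and 55.2% ± 3.43 on day 5 and 54.5% ± 1.79 and 56.9% ± 1.30 on day 7. The summed level of the γ class was 178 ± 8.27 and 202 ± 8.31 on day 5 and 134 ± 1.58 and 191 ± 7.54 on day 7. These shares and sums are descriptions, without a test.

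**Figure D3:**
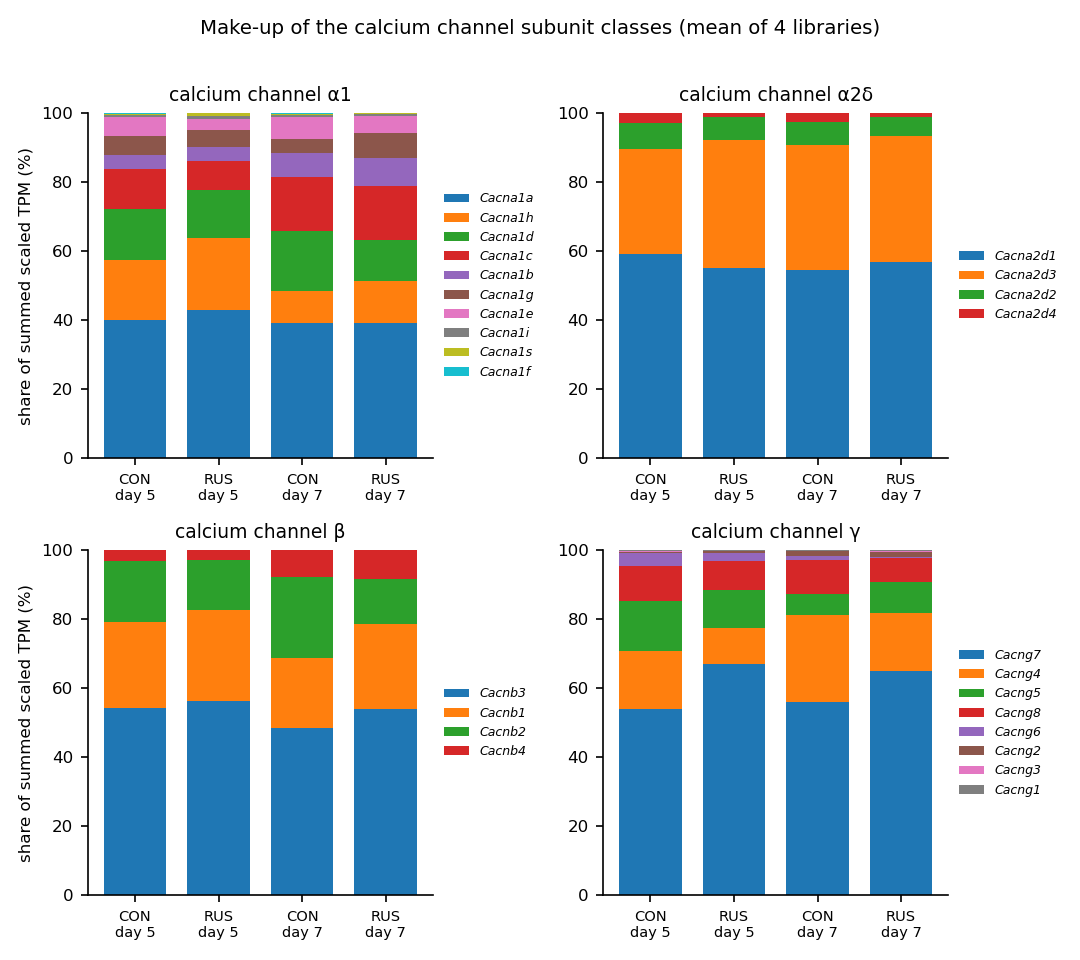
Share of each gene in the summed scaled TPM of its calcium channel subunit class (vertical axis, percent, mean of 4 libraries) in the 4 groups. Cacna1a, Cacnb3, Cacna2d1 and Cacng7 lead their classes in all groups.

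The passage from day 5 to day 7, during which the cultures differentiated, was compared within each shRNA in 1 fit over the 16 libraries. In controls 17 of 34 channel genes rose and 5 fell, 64.7% against 48.5% of all genes (50.0% against 26.9% up, and 14.7% against 21.6% down). In knockdown cultures 20 rose and 5 fell, 73.5% against 60.8% (58.8% against 35.0% up, and 14.7% against 25.8% down). With TPM as deposited the split in knockdown cultures was 28 up and 1 down, that of all genes 49.6% up and 14.9% down, and the median of all genes moved from 0.13 to 0.41; in controls it moved from 0.07 to 0.20.

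Of 15 pore-forming genes tested, 10 rose with both shRNAs, 66.7% against 20.8% of all genes. Cacna1s alone among them rose in controls (0.98 ± 0.34, adjusted p = 0.0273) and fell in knockdown cultures (−0.92 ± 0.34, adjusted p = 0.0297), calls lost in 4 of 8 and 2 of 8 fits without 1 library. Scn3a rose by 1.51 ± 0.25 with shRNA CON (adjusted p = 1.20e-04) and by 2.34 ± 0.25 with shRNA RUS (adjusted p = 7.47e-07). Cacna1b rose by 1.39 ± 0.21 and 1.89 ± 0.21 (adjusted p = 4.89e-05 and 1.07e-06), and Cacna1c by 1.12 ± 0.12 and 1.87 ± 0.12 (adjusted p = 1.62e-06 and 3.26e-09). Scn4b had the largest rise in controls, 2.48 ± 0.16, and rose by 2.20 ± 0.16 in knockdown cultures (adjusted p = 3.50e-09 and 7.85e-09).

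Cacng5 fell in controls (−1.61 ± 0.06, adjusted p = 2.08e-11) and by less with shRNA RUS (−0.35 ± 0.06, adjusted p = 2.18e-04), a call that was lost with TPM as deposited (−0.02, adjusted p = 0.819). Cacng6 fell more with shRNA RUS (−2.46 ± 0.12, adjusted p = 1.73e-10) than with shRNA CON (−1.67 ± 0.12, adjusted p = 1.78e-08). Cacng7 fell in controls (−0.34 ± 0.05, adjusted p = 3.64e-05). In knockdown cultures its change of −0.13 ± 0.05, adjusted p = 0.0377 turned to a rise of 0.20 with TPM as deposited and of 0.15 after quantile normalization.

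The knockdown effect itself differed between the days for 16 of 34 channel genes, 13 upward and 3 downward on day 7 (47.1% against 29.8% of all genes; 38.2% against 15.2% upward and 8.82% against 14.6% downward). With TPM as deposited 18 differed upward and 2 downward, and all genes shifted to 24.0% upward and 8.63% downward. This contrast uses the same 16 libraries as the comparisons by day. The largest upward differences were those of Cacng3 (1.50 ± 0.38, adjusted p = 0.00757), Cacna1g (1.38 ± 0.38, adjusted p = 0.0136) and Cacng5, and the downward ones were Cacna1s (−1.90 ± 0.49, adjusted p = 0.00809), Cacng6 and Cacnb2 (−0.43 ± 0.12, adjusted p = 0.0146). The call of Cacnb2 was lost with TPM as deposited, where the difference was −0.26 (adjusted p = 0.169). The 3 sodium channel α genes (Scn1a, Scn2a and Scn8a) that were lower on day 5 and not called on day 7 had effects that differed between the days, the smallest being that of Scn2a (0.44 ± 0.16, adjusted p = 0.0460), a call lost in 12 of 16 fits that left out 1 library. For Scn3b and Scn4b, lower on both days, a difference was not detected (0.11 ± 0.09, adjusted p = 0.410 and −0.28 ± 0.22, adjusted p = 0.379). Nor was it for 4 genes called on day 7 alone: Cacna1d (−0.15 ± 0.15, adjusted p = 0.474), Cacna2d3 (0.13 ± 0.10, adjusted p = 0.352), Cacnb4 (0.28 ± 0.23, adjusted p = 0.390) and Scn9a (−0.37 ± 0.31, adjusted p = 0.411).

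**Figure D4:**
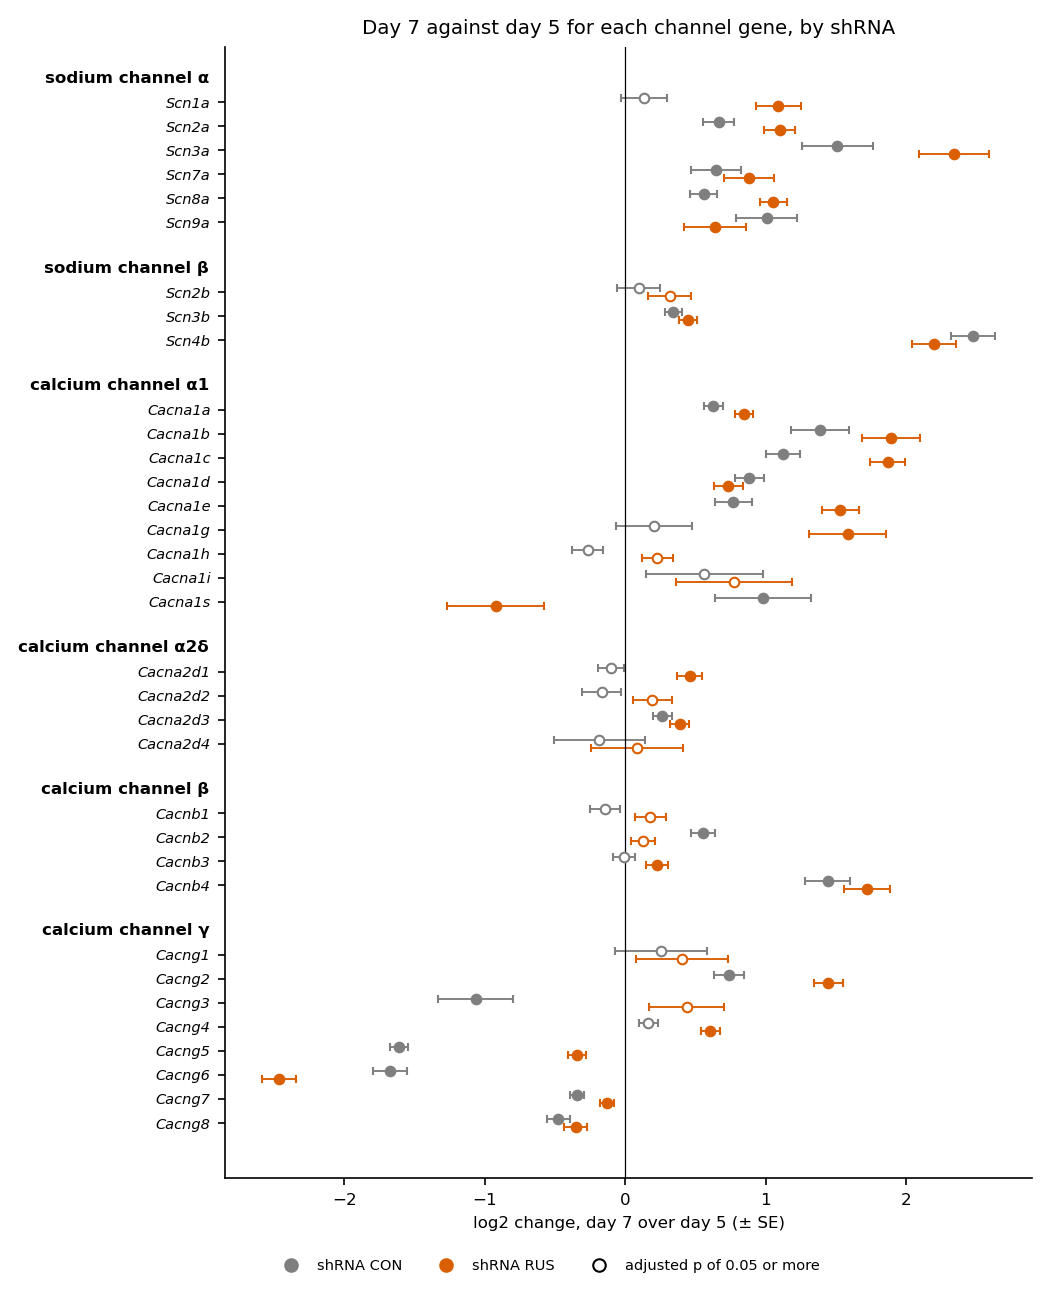
Log2 change from day 5 to day 7 of each channel gene (horizontal axis, ± SE of limma) with shRNA CON (grey) and shRNA RUS (orange), grouped by subunit class; filled points have an adjusted p under 0.05. Most sodium channel α and calcium channel α1 genes lie right of 0 for both shRNAs, and Cacng5 and Cacng6 lie left of it.

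Several channel genes are neighbours on a chromosome, and some neighbours differed in their calls (GENCODE vM21, GRCm38). On chromosome 7, Cacng7 (chr7:3332955-3368221), Cacng8 (chr7:3390683-3415648) and Cacng6 (chr7:3424195-3435667) follow each other on the plus strand, 22.5 kb and 8.5 kb apart. The first was higher on both days, the second was not called and the third was lower on both. On chromosome 9, Scn2b (chr9:45117782-45130070) and Scn4b (chr9:45138395-45154152) lie 8.3 kb apart on the plus strand, and Scn4b alone was called.

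On chromosome 11, Cacng1, Cacng4 and Cacng5 (chr11:107874605-107915055, minus strand) are separated by 15.8 kb and 80.0 kb. Cacng4 and Cacng5 were both lower on day 5, and on day 7 only Cacng5 was higher. Cacna1c and Cacna2d4 on chromosome 6 lie 40.1 kb apart on opposite strands and differed in call on day 7. On chromosome 2, the α genes Scn3a, Scn2a, Scn1a, Scn9a and Scn7a lie within one stretch of the chromosome, where Scn2a and Scn1a were lower on day 5. No other protein-coding gene is annotated wholly within the gaps between the neighbours named here, apart from 3 between Scn2a and Scn1a. Genes that lie only partly in a gap were not counted.

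**Figure D5:**
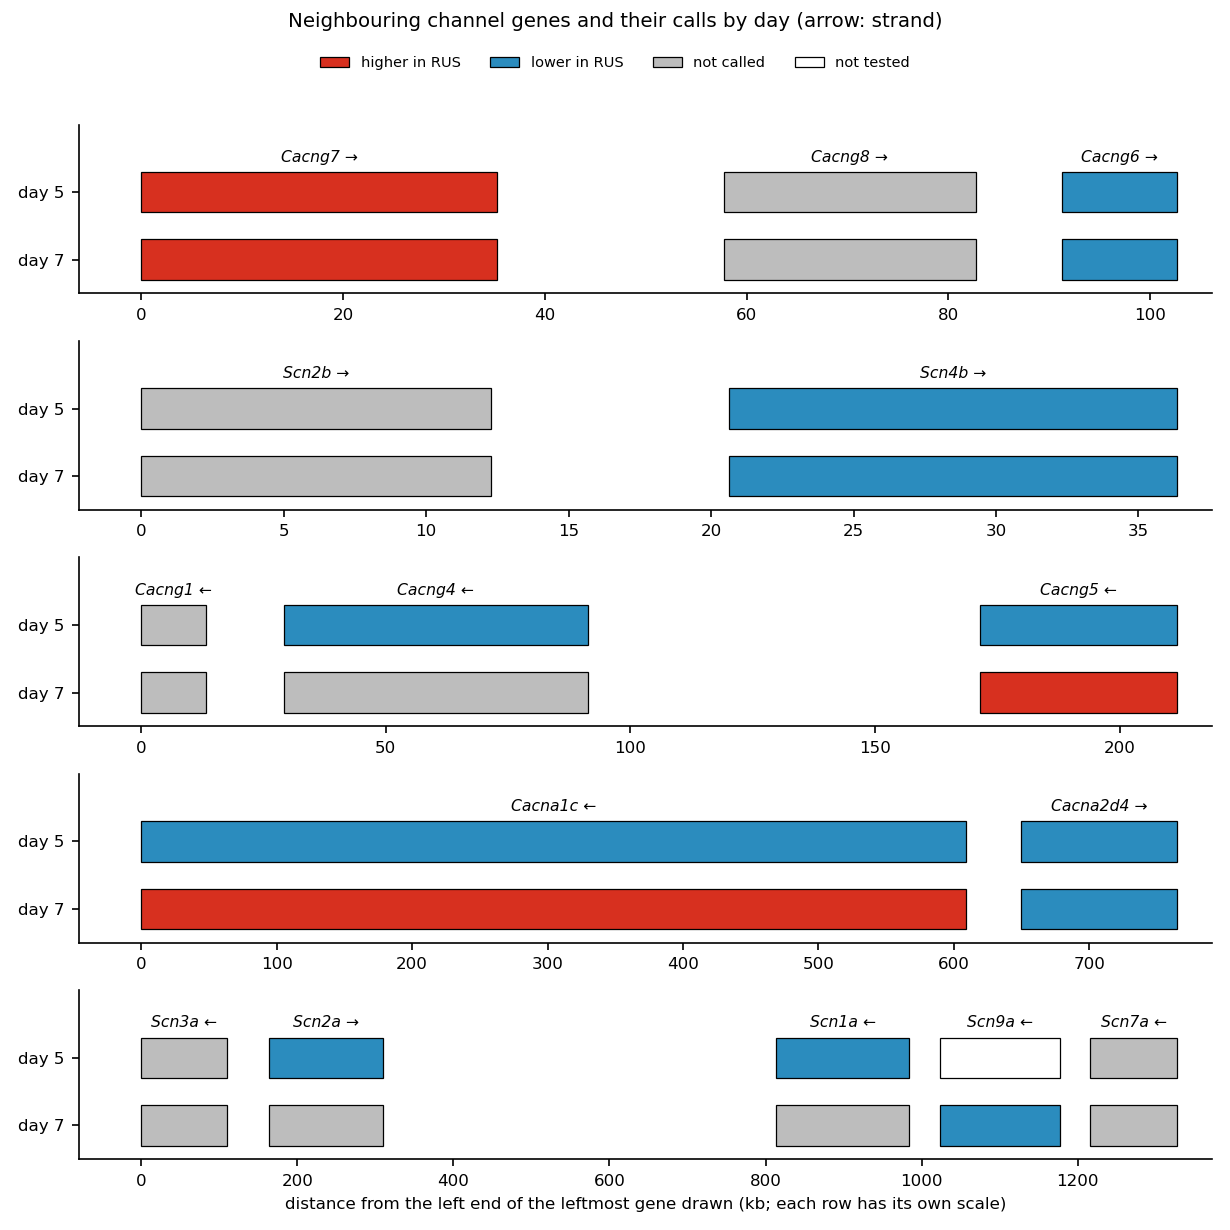
Maps of 5 sets of neighbouring channel genes (horizontal axes, kb from the left end of the leftmost gene, each with its own scale), coloured by their call with shRNA RUS on day 5 (upper bars) and day 7 (lower bars). Cacng7 and Cacng6 in the top map are called in opposite directions on both days.

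RefSeq starts were matched for 30 of the 38 channel genes, 41 promoters of 300 bases (250 before and 50 after the start). The median GC content of these was 59.3%, against 52.7% for all 32851 promoters. The E-box CAGCTG, its own reverse complement and the core that proneural bHLH factors bind, was found in 13 of the 41 (31.7%) and in 16.3% of all promoters. These 13 belong to 12 genes, among them Cacng2, Cacng3 and Cacng8, 3 of the 5 TARPs matched, and Cacna1b, Cacna1c and Cacna1d. The GC box was in 39% against 35.7%, and TATAAA, searched on both strands like the others, in 4.88% against 13.6%. A match is a description of the letters and not of binding.

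Proteins that bind these channels were also counted. Of 18 partners of sodium channels (ankyrins, FGF homologous factors, contactins, calmodulins and others), 8 were higher and 1 lower on day 5, and 10 higher and 2 lower on day 7, with medians of 0.15 and 0.22, where those of all genes were −0.06 and −0.03. Higher calls thus made up 44.4% on day 5 and 55.6% on day 7, against 14.8% and 23.4% of all genes tested, and lower calls 5.56% and 11.1%, against 17.9% and 25.8%. Ank2, an ankyrin that anchors channels to the cytoskeleton, was higher on both days (0.44 ± 0.07, adjusted p = 0.00192 and 1.14 ± 0.03, adjusted p = 4.60e-08). Fgf14, an FGF homologous factor that binds the α subunit at the axon initial segment, was lower on both (−1.54 ± 0.17, adjusted p = 2.13e-04 and −0.91 ± 0.11, adjusted p = 9.93e-05). Calm3, a calmodulin gene, was higher on day 5 (0.39 ± 0.06, adjusted p = 0.00115). On day 7 Fgf11, another homologous factor, was higher (0.57 ± 0.07, adjusted p = 1.68e-04) and Cntn1, or contactin, was lower (−0.51 ± 0.11, adjusted p = 0.00382).

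Of 30 partners of calcium channels, 28 were tested; 6 were higher and 2 lower on day 5 and 11 higher and 1 lower on day 7 (medians −0.01 and 0.17). In either direction 28.6% were called on day 5 and 42.9% on day 7, below the 32.7% and 49.2% of all genes; higher calls made up 21.4% and 39.3%, and lower calls 7.14% and 3.57%. Rrad, a small GTPase that inhibits calcium channels, was higher on day 5 (1.04 ± 0.16, adjusted p = 0.00106), as was the calcium sensor Ncs1 (0.84 ± 0.06, adjusted p = 2.90e-05). Thbs1, a thrombospondin and ligand of Cacna2d1, was lower on both days (−0.74 ± 0.11, adjusted p = 7.41e-04 and −0.46 ± 0.04, adjusted p = 2.23e-05), whereas Thbs2, another ligand of this kind, was higher on day 7 (1.43 ± 0.06, adjusted p = 1.92e-07). Of the active zone proteins that tether presynaptic calcium channels, Rims2 was lower on day 5 (−0.47 ± 0.09, adjusted p = 0.00419) and Erc1 higher on day 7 (1.02 ± 0.04, adjusted p = 1.22e-07).

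Marker genes of the cells a culture could hold moved too, and their part in the results above was not tested. Of all genes tested, 14.8% were higher and 17.9% lower on day 5, and 23.4% and 25.8% on day 7. Neuronal markers (6 genes, summed scaled TPM) ranged over 324 to 409 with shRNA CON and 282 to 316 with shRNA RUS on day 5, with 1 gene higher and 2 lower, and over 642 to 721 and 601 to 719.8 on day 7, with 3 higher and 1 lower. Neural stem cell markers, led by Vim and Fabp7, ranged over 11555 to 13715 and 16820.0 to 20369 on day 5 (3 of 6 higher, 2 lower) and over 6037 to 6362 and 6433 to 7025 on day 7 (2 higher, 2 lower). Vim and Fabp7 were among the abundant transcripts of every group, at 9181 and 3617 scaled TPM in the day 5 controls, and both were higher on day 5 (0.55 ± 0.10, adjusted p = 0.00327 and 0.52 ± 0.10, adjusted p = 0.00302). Nes and Hes5 of the same list were lower on both days, Nes at changes of −0.87 ± 0.07, adjusted p = 3.46e-05 and −1.19 ± 0.07, adjusted p = 1.71e-06 and Hes5 at −0.67 ± 0.21, adjusted p = 0.0357 and −0.83 ± 0.17, adjusted p = 0.00304. Astrocyte markers were at 4014 to 4138 and 4917 to 5088 on day 5 (1 of 6 higher, none lower, median change 0.02) and 2233 to 2342 and 2249 to 2519 on day 7 (2 higher, 2 lower).

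Oligodendrocyte lineage markers were lower in 4 of 6 genes on day 5 and in 6 of 6 on day 7, when they summed to 339 to 381 in controls and 217 to 236 in knockdown cultures. Microglial markers were lower in 2 and 6 of 6, with sums of 65.4 to 70.5 and 28.1 to 36.9 on day 7. Smooth muscle markers were lower in 4 of 6 on day 5 (716 to 843 against 442 to 514) and in 3 on day 7, with 1 higher. Skeletal muscle markers summed to 6.92 to 10.1 and 5.99 to 7.29 on day 5 (none of 3 tested called) and to 6.63 to 7.52 and 3.45 to 5.05 on day 7 (1 higher and 2 lower of 4). Fibroblast and vascular markers summed to no more than 19.4, with 1 of 5 tested called, higher on day 7; Cldn5 was at 0 in all day 7 controls, and no other marker was at 0 throughout a group.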

How the data were processed

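PolyA RNA of 16 libraries was sequenced by the authors on an Illumina instrument. The authors aligned reads with STAR, estimated transcripts with RSEM against GRCm38 (mm10) and deposited TPM per gene and library in 1 table per day. The submitters' processing notes name RSEM and DESeq, and no version is given in the sources used here. The tables also hold the authors' base mean, a signal averaged over the 8 libraries of a day, which was read only to see how scarce a gene was, and their fold changes and p-values, which were not used.

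TPM of each library was divided by a median-ratio factor over genes of at least 1 TPM (13993 genes on day 5, 14814 on day 7 and 13614 over both). Genes averaging 0.1 TPM or more were tested with limma 3.58.1 (R 4.3.3) on log2(scaled TPM + 0.1), with a trend in the variance, two-sided, with Benjamini-Hochberg adjustment over all genes tested: 22581 on day 5, 24606 on day 7 and 23789 in the fit over 16 libraries. Each day was fitted on its 8 libraries, and the difference between the days and the change over time in 1 fit over all 16. The 2 days were deposited as separate tables, and levels set across them rest on the factors. The fit was tested on simulated data first. Other steps used Python 3.11.15, pandas 2.3.3, scipy 1.17.1 and matplotlib 3.10.9. Gene positions came from GENCODE vM21 (all 38 genes matched), and promoters from RefSeq (GRCm38.p6, 30 genes matched).

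Groups came from the sample labels. Some genes that the symbol rule matches are not reported here, and all counts over channel genes leave them out; the fits across all genes do not. Channel genes averaging 1 TPM or more on either day (25 of 38) were described by group and the others by counts and ranges. Values in every library were given for the most abundant gene described in each class and for genes called with a log2 change of at least 1 on a day; those of Cacna1c were added after its values were seen. Of each partner list, the 2 called genes with the largest rise and the 2 with the largest fall on each day were named, if they averaged 1 TPM or more. The channel genes, partner lists and marker lists were chosen with earlier results of these data known. Alternatives were another pseudocount, filter, scaling or variance model, a replicate block, 1 fit over 16 libraries and leaving out each library.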

Additional observations from a re-analysis of the deposited data

Results flagged for a closer look

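The knockdown effect differed between the days, by the test of the difference itself in limma's fit over 16 libraries (adjusted p under 0.05), for 16 of 34 channel genes. That is 47.1%, against 29.8% of all genes tested. The log2 difference, day 7 effect minus day 5 effect, was upward for the sodium channel genes Scn1a (0.96), Scn2a (0.44) and Scn8a (0.49). It was upward for the calcium channel genes Cacna1c (0.75), Cacna1e (0.76), Cacna1g (1.38), Cacna1h (0.49) and Cacna2d1 (0.56), and for the γ genes Cacng2 (0.71), Cacng3 (1.50), Cacng4 (0.44), Cacng5 (1.26) and Cacng7 (0.22). It was downward for Cacna1s (−1.90), Cacnb2 (−0.43) and Cacng6 (−0.79). The calls of Scn2a, Cacna1h and Cacng7 were each lost in some of the 16 fits that left out 1 library, in 12, 3 and 8 of them. That of Cacnb2 was lost with TPM as deposited (−0.26, adjusted p = 0.169), and those of Scn2a and Cacna1h after quantile normalization.

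One library stood apart from the other 3 of its group, by a gap above Dixon's 95% limit for 4 values, in 5 of 100 groups of a gene; chance marks about 1 group in 20. Cacna1d was lowest in replicate 2 of shRNA RUS on day 5, at 4.52 scaled TPM. Cacna1e was highest in replicate 4 of the same group, at 1.84. Cacnb3 was lowest in replicate 4 of shRNA CON on day 7, at 23.6. Cacng2 was lowest in replicate 3 of shRNA RUS on day 7, at 2.57, and Cacng5 was highest in replicate 3 of shRNA CON on day 7, at 8.61.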

How the results depend on the processing

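Leaving out 1 library gave 7 to 15 calls among the channel genes on day 5 (14 with all libraries). There were 9 without shRNA CON replicate 1, 9 without replicate 2 and 7 without replicate 3, or 21.9% to 27.3% of those tested against 25.5% to 27.1% of all genes. On day 7 it gave 16 to 18 (20), or 47.1% to 52.9% against 45.2% to 47.5% of all genes. For the difference between the days it gave 13 to 17 (16), or 38.2% to 50% against 25.8% to 34.7%. For the change over time it gave 21 to 23 in controls (22), or 61.8% to 67.6% against 44.4% to 47.4%. In knockdown cultures it gave 23 to 25 (25), or 67.6% to 73.5% against 57.7% to 60.9%. With the replicate number as a block the counts were 8 on day 5, 17 on day 7, 13 for the difference, 22 in controls and 24 in knockdown cultures. These are 24.2%, 50%, 38.2%, 64.7% and 70.6%, against 22.0%, 45.6%, 27.8%, 47.3% and 59.8% of all genes. Replicate numbers were not taken to pair the libraries: deviations of same-numbered libraries correlated at −0.105 to 0.0325 between shRNAs within a day, where 2 of 8 correlated best with their own number, and at −0.0811 to 0.0267 between days within an shRNA, where 1 of 8 did. The change of Cacng7 over time in knockdown cultures, −0.13, turned to 0.20 with TPM as deposited (adjusted p = 0.00958) and 0.15 after quantile normalization (adjusted p = 0.0250). With TPM as deposited the median change of all genes was −0.21 on day 5 and 0.19 for the difference between the days, against −0.06 and 0.04. Under every alternative run in which the gene was tested, 5 of 14, 15 of 20, 12 of 16, 19 of 22 and 19 of 25 calls passed the test, in the order of the comparisons above. Of the genes not called, 5 of 19, 3 of 14, 6 of 18, 3 of 12 and 7 of 9 were called under some alternative. TPM as deposited keeps no depth, so how far read number limits the scarce genes was not tested.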
